A study of Homo sapiens with 5 samples.

Results

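This account covers 34 genes of mitosis and the spindle, of 15024 genes tested, in 3 related human renal cell carcinoma lines. The members were listed by symbol, and every probe set that the platform's gene table assigns to a member symbol was collected, 66 in all. For each gene the probe set with the highest mean over the 5 arrays was used. All 34 genes were measured and all 34 passed the filter on low values, which asked for at least 6.03 log2 units on at least 2 arrays.

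Cells enter mitosis when cyclin B switches on the kinase CDK1, which CDC25 phosphatases and polo-like kinase help to activate. Microtubules then build a spindle, kinetochores fasten the chromosomes to it, and a checkpoint holds the cell until all are attached. The anaphase-promoting complex, a ubiquitin ligase, then marks securin and cyclin B for destruction, the chromosomes part and the cell divides. Many of these genes are transcribed together late in the cell cycle, which makes them a common readout of proliferation in tumour cells.

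SN12C is an established human renal cell carcinoma line; here it is the parent of the others, labelled non-metastatic, with 2 arrays. LM1 is the lung-metastatic line of generation 1, with 1 array, and LM2 the lung-metastatic line of generation 2, with 2 arrays. The labels name no treatment, and all 5 arrays were hybridised with total RNA of cultured lines. The SN12C and LM2 pairs are labelled biological replicates. Whether they came from separate cultures, and whether LM1 and LM2 are clones or pools of cells, the sources used here do not state. A p-value here therefore reflects only how these arrays spread, and that spread may be technical. The lines were profiled to look for expression differences that accompany rising metastatic activity.

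The deposited values are log2 signals, with array medians from 6.51 to 6.57 over 54675 probe sets, and the number of arrays limits the precision. Keratins KRT8 and KRT18 and vimentin, found in renal carcinoma lines, read 12.46 to 14.72 on all arrays, and the renal factor PAX8 read 9.19 to 9.82, while PAX2 and LHX1 stayed between 6.06 and 6.46, near the filter value. Of the 9 line-identity markers measured, KRT19, an epithelial keratin, differed most, with 8.92 and 9.54 in SN12C, 12.01 in LM1 and 11.76 and 11.74 in LM2 (limma adjusted p = 0.225 for LM2 and 0.0964 for LM1 against SN12C). The leukocyte marker PTPRC, the endothelial marker CDH5 and the fibroblast marker LUM were below the filter value on every array. The other markers of these lists were above it on each array: 2 of 3 leukocyte, 3 of 4 endothelial and 4 of 5 fibroblast markers. The erythroid marker HBB read 7.23 to 7.76. Among 5 fibroblast markers, 4 of which were tested, the mean level ran from 7.13 on SN12C replicate 1 to 8.41 on LM2 replicate 1, led by COL3A1 with 6.98 and 8.98 in SN12C and 10.94 and 11.11 in LM2; its part in the results was not tested. Leukocyte and endothelial markers, 3 and 4 of them on the array, had mean levels of 6.07 to 6.22 and 6.30 to 6.52. RNA quality differed: the 3' probe set of beta-actin exceeded the 5' one by 3.43 log2 units on LM1, 0.47 on SN12C replicate 1 and 0.07 to 0.23 on the others. The SD over all probe sets was 2.11 on SN12C replicate 1 and 2.22 to 2.25 elsewhere.

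The first comparison, LM2 with SN12C, sets the second metastatic generation against its parent. Most mitosis genes were somewhat higher in LM2, by less than 1 log2 unit each, and the gene with the largest difference was lower. The median member difference was 0.30 log2 units, against 0.03 over all genes tested, and 28 of 34 members were higher in LM2, against 55.5% of all genes. UBE2C, the ubiquitin-conjugating enzyme that works with the anaphase-promoting complex, was lower by 1.06, and PLK1, polo-like kinase, was higher by 0.81. In bulk RNA, more cells in mitosis and more of these transcripts per cell cannot be told apart.

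No member passed an adjusted p of 0.05 in limma over all genes (lowest adjusted p = 0.252, for UBE2C), and 0 of the 15024 genes did, so percent called was 0. At an unadjusted p under 0.05 limma had 9 of 34 members and 11.6% of all genes. Without SN12C replicate 2, when only the LM2 pair gives a spread, 11 members and 3824 genes passed. With 2 arrays in each line, the smallest two-sided p of an exact permutation test is 0.333.

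The groups were compared array by array as well. In 24 of 34 members both LM2 arrays lay above both SN12C arrays, against 25.3% of all genes, and in 3 members, UBE2C, KIF2C and BUB1, both lay below, against 14.1%. The remaining 7 overlapped. The members give bright signals, and bright genes as a whole differed between these arrays: among the 3698 genes with a mean at least that of the dimmest member, 69.5% were higher in LM2, with both LM2 arrays above in 37.7% and below in 15.5%. That brighter set had a median difference of 0.15. After quantile normalizing the deposited values again, 20 members lay above and 5 below, where all genes split into 24.8% and 25.5%, and the median member difference was 0.18.

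**Figure D1:**
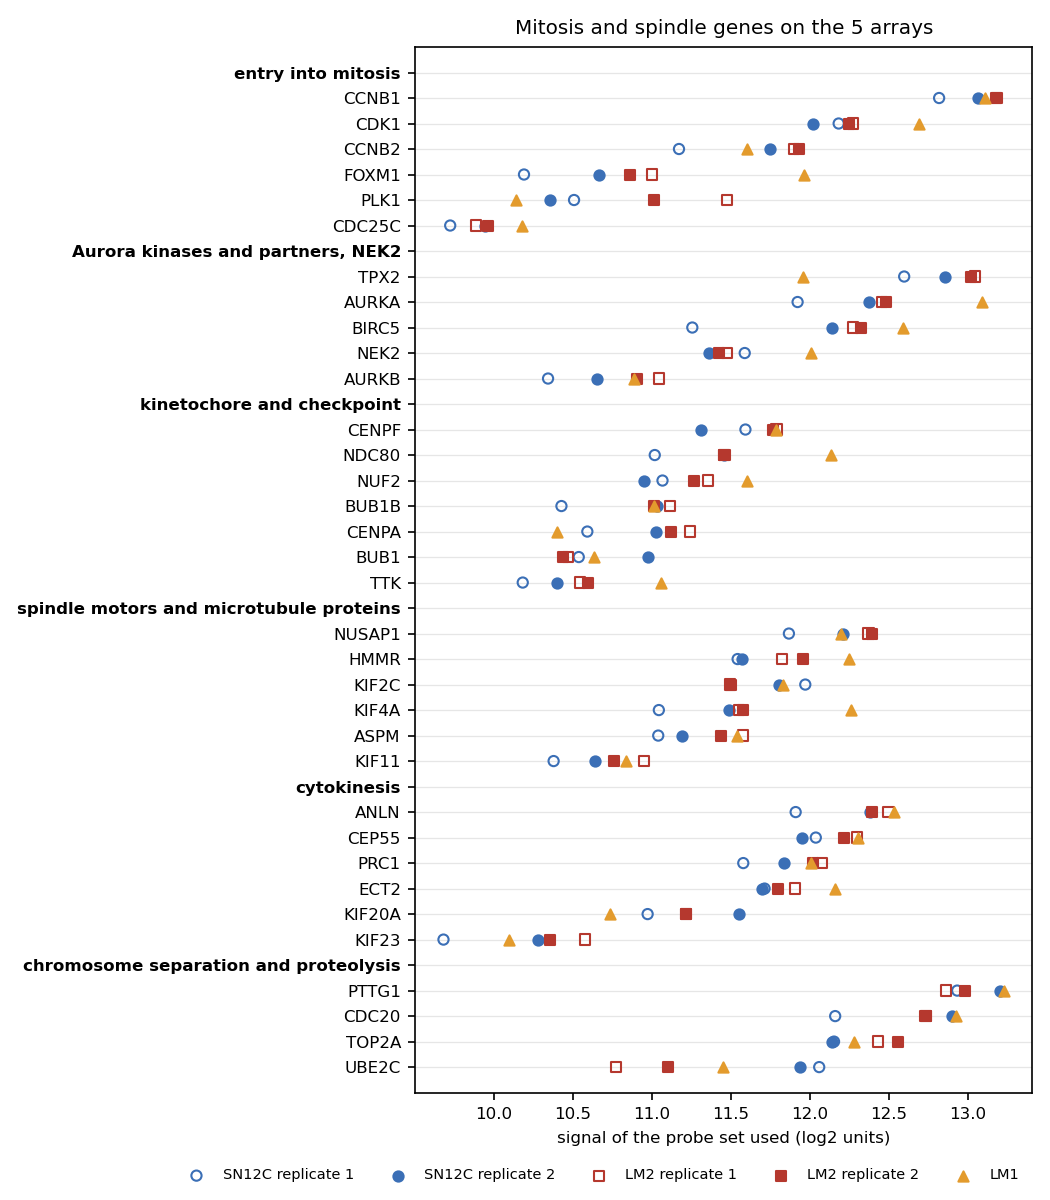
Signal of each member on each array, in log2 units on the horizontal axis, with genes grouped by role; circles are SN12C, squares LM2 (open for replicate 1, filled for replicate 2) and triangles LM1. Both LM2 squares lie to the right of both SN12C circles in 24 of the 34 genes and to the left in UBE2C, KIF2C and BUB1.

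The size of these differences depended on which SN12C array LM2 was set against. SN12C replicate 1 was below replicate 2 in 24 of 34 members, against 57.5% of all genes and 80.2% of the brighter genes. Against replicate 1 the median member difference of the LM2 mean was 0.44, with 29 of 34 members higher (56.2% of all genes, 74.9% of the brighter ones). Against replicate 2 the median was 0.16, with 27 of 34 higher (50.5% and 52.8%). The brighter genes had medians of 0.31 against replicate 1 and 0.01 against replicate 2. The gap between the SN12C arrays, a median of 0.26 in size over the members, compares with 0.07 between the LM2 arrays. For 2 members, CDC20 and KIF20A, the deposited values of both LM2 arrays were identical, as in 14.2% of all genes, which shrinks their estimated spread.

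**Figure D2:**
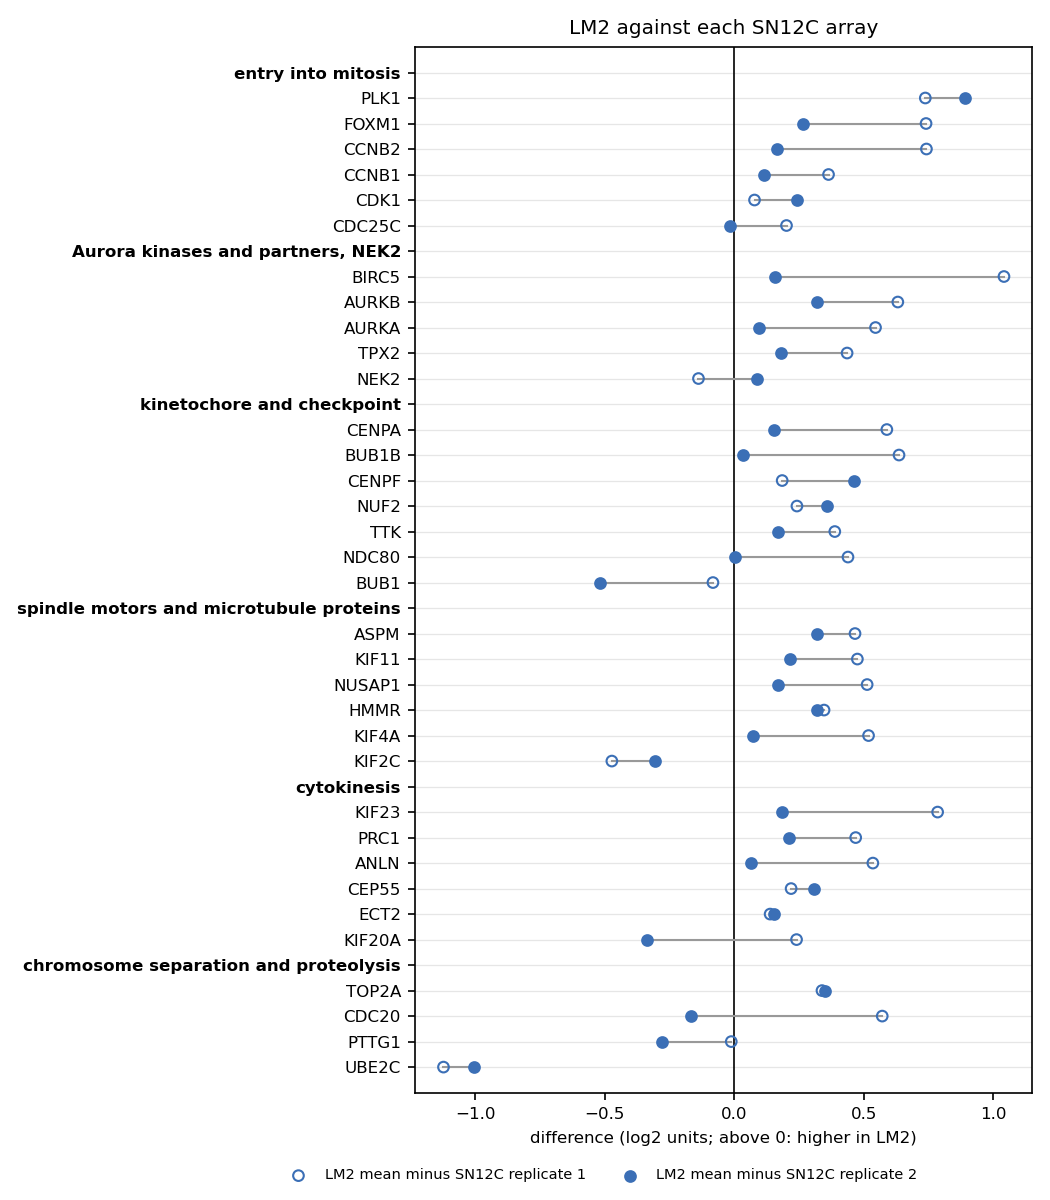
LM2 mean minus SN12C replicate 1 (open circles) and minus SN12C replicate 2 (filled circles) for each member, in log2 units. Most members lie right of 0 against either array; UBE2C, KIF2C, BUB1 and PTTG1 lie left of it against both.

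The promoters of these genes are shown because many genes of late mitosis share a cell-cycle element, the CHR, with the core TTTGAA, and boxes CCAAT bound by NF-Y. RefSeq promoters (GRCh38.p14, 250 bases before the start and 50 after) were listed for 28 of the 34 members; AURKA, BIRC5, FOXM1, TPX2, TTK and UBE2C are not in the table used here. Both strands were searched, and a gene with several listed starts counted when any of its windows held the motif. TTTGAA was found in 21 of 28 members, against 14.1% of 11935 tested genes with a promoter, CCAAT in 23 of 28 against 42.2%, and both in 17 of 28 against 5.84%. Over all 35116 promoter windows of this length the shares were 15.2% for TTTGAA and 34.6% for CCAAT. The related letters TTCGAA, looked up after the first count, were in BUB1 and NDC80, 2 of 28 members. They were in 2.25% of the tested genes with a promoter and in 1.45% of all promoter windows. The 120 bases before the start are given for 6 members with the CHR core and for 4 members without it that were not higher in LM2, and capitals mark matches. The CHR core is in capitals on either strand, and so is CCAAT, which reads ATTGG when it lies on the other strand; matches that touch or overlap form 1 run of capitals.
PLK1, chr16:23678769-23678888, plus strand: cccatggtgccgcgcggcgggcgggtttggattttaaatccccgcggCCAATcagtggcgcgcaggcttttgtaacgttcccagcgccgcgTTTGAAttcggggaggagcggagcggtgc
CCNB2, chr15:59105026-59105145, plus strand: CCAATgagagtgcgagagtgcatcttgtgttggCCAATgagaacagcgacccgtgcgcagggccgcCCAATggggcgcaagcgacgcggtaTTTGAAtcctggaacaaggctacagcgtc
KIF23, chr15:69414229-69414348, plus strand: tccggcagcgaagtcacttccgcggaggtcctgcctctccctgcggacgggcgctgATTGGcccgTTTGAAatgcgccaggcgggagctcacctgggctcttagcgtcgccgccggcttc
KIF4A, chrX:70289984-70290103, plus strand: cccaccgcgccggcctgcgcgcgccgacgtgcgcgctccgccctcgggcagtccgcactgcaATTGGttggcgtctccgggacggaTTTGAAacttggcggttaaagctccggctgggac
HMMR, chr5:163460512-163460631, plus strand: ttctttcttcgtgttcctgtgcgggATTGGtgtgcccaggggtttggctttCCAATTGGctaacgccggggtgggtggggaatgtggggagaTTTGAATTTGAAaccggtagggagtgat
CDC20, chr1:43358861-43358980, plus strand: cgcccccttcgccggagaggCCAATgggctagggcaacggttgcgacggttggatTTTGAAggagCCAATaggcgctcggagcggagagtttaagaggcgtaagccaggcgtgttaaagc
KIF2C, chr1:44739717-44739836, plus strand: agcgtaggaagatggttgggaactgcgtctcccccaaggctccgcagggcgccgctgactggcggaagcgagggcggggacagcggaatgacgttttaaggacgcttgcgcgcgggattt
BUB1, chr2:110678064-110678183, minus strand: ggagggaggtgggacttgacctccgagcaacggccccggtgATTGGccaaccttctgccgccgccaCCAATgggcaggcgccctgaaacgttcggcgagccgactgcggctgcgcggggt
PTTG1, chr5:160421735-160421854, plus strand: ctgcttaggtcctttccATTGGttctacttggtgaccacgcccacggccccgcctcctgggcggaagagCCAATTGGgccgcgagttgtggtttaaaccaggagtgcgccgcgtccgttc
KIF20A, chr5:138178992-138179111, plus strand: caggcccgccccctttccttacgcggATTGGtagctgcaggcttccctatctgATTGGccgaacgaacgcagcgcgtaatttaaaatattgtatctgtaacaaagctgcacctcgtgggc

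Counted from the start, the core begins at -29 in PLK1 and at -29 in CCNB2, and the NF-Y box of PLK1 at -73. A match is a description of letters and not a bound site, and its absence says only that these letters are not in the window.

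After the values had been seen, the members were set out by this motif, as a description. The 21 members with TTTGAA in a listed window were higher in LM2 in 21 of 21 cases, by 0.09 to 0.81 with a median of 0.33 log2 units. Of the 7 without it, AURKB and CCNB1 were higher, and KIF2C, BUB1, PTTG1, KIF20A and NEK2 were lower, with a median of -0.05. Against SN12C replicate 2 alone the 2 counts of higher members were 19 of 21 and 3 of 7. BUB1, at -0.30, holds the related letters TTCGAA. With either set of letters counted, 21 of 22 members were higher, where 54.0% of such tested genes were. With neither, 2 of 6 members were higher, where 56.3% of such genes were. Over the 1679 tested genes that hold TTTGAA, 53.5% were higher in LM2 with a median of 0.02, against 56.4% and 0.04 for the 10256 without it, so the split seen in the members was not seen over all genes. CDC25C, at 0.09, turned to -0.07 after quantile normalizing again. The split also depended on the probe sets used. Among members with the motif, further probe sets past the filter were lower in ASPM (-0.49 and -0.72), KIF23 (-0.046) and CDC25C (-0.16). CDC20 was at -0.17 against SN12C replicate 2. Among members without it, further probe sets were higher in NEK2 (0.61) and BUB1 (0.21 and 0.22). In LM1 19 of the 21 and 4 of the 7 were above the SN12C mean.

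**Figure D3:**
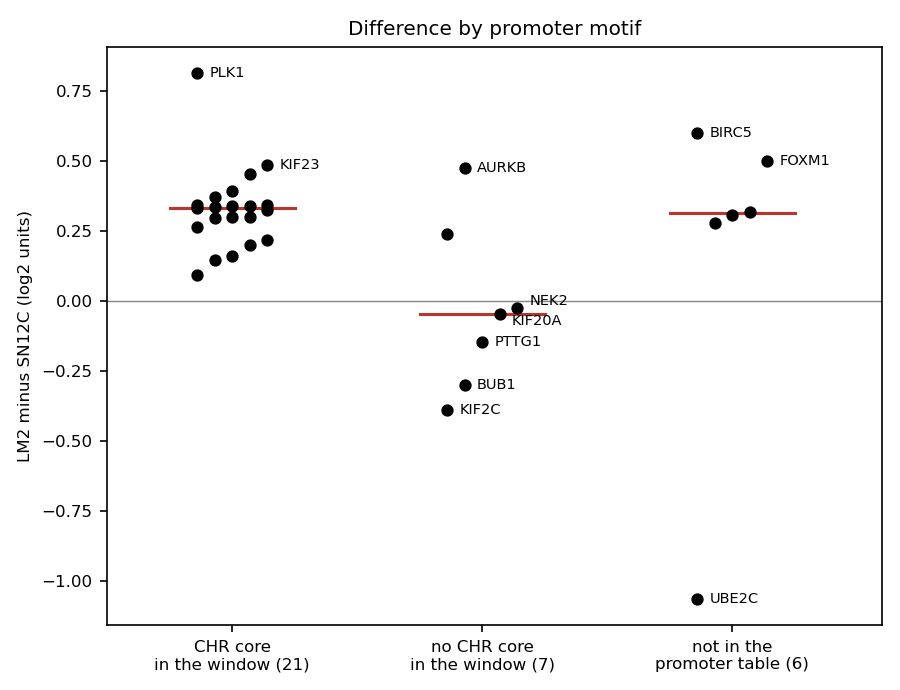
LM2 mean minus SN12C mean of each member, in log2 units, by whether a RefSeq promoter window holds the CHR core (21 genes), does not (7) or is not listed (6); red bars are medians and the largest and the negative values are named. All 21 points of the first column are above 0, and UBE2C at -1.06 is in the last. BUB1, which holds the related letters TTCGAA, is in the middle column.

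Among the genes of entry into mitosis 6 of 6 were higher in LM2 (55.5% of all genes, 69.5% of the brighter ones). In 5 both LM2 arrays lay above both SN12C arrays (25.3% and 37.7%). PLK1, the polo-like kinase that helps to activate CDK1 and mature the centrosomes, read 10.51 and 10.36 on the SN12C arrays and 11.48 and 11.02 on the LM2 arrays. Both LM2 values were above both SN12C values, and the means were 10.43 ± 0.11 and 11.25 ± 0.33 (SD, n = 2 each), a difference of 0.81 ± 0.20 (SE; limma adjusted p = 0.351). PLK1 was higher against each SN12C array, by 0.74 and 0.89, so its difference did not hang on 1 of them. CCNB1 encodes cyclin B1, the partner of CDK1. It read 12.82 and 13.07 in SN12C and 13.19 and 13.18 in LM2, a narrow difference of 0.24 with no overlap. That held for the probe set used only. A further CCNB1 probe set past the filter read 11.07 and 10.71 in SN12C and 10.92 and 10.89 in LM2. There the difference was 0.016 and the lines overlapped. CCNB2, the second B-type cyclin, stood at 11.17 and 11.75 in SN12C and 11.90 and 11.93 in LM2. Here the LM2 arrays were close to each other and near SN12C replicate 2, which was 0.58 above replicate 1.

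CDK1 itself, the kinase that drives mitosis, read 12.18 and 12.02 in SN12C and 12.27 and 12.25 in LM2, a difference of 0.16 ± 0.09 (SE; limma adjusted p = 0.631), while its 3 further probe sets gave 0.62, 0.68 and 0.90. FOXM1, a transcription factor of late cell-cycle genes, read 10.19 and 10.67 in SN12C and 11.00 and 10.86 in LM2. Its LM2 values were above both parental values, by 0.74 and 0.26 as means. The phosphatase CDC25C, which removes the inhibitory phosphates from CDK1, overlapped between the lines, with 9.73 and 9.94 in SN12C and 9.89 and 9.97 in LM2.

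The Aurora kinases and their partners were higher in LM2 in 4 of 5 cases, all without overlap (25.3% of all genes, 37.7% of the brighter ones). AURKA, the spindle-pole Aurora kinase, read 11.92 and 12.38 in SN12C and 12.46 and 12.48 in LM2. TPX2, which activates AURKA on the spindle, read 12.60 and 12.85 in SN12C and 13.05 and 13.02 in LM2. For both genes the LM2 pair lay just above SN12C replicate 2. AURKB, the kinase of the chromosomal passenger complex, read 10.35 and 10.66 in SN12C and 11.05 and 10.91 in LM2, a difference of 0.48 ± 0.15 (SE; limma adjusted p = 0.418). A further, dimmer AURKB probe set read 7.37 and 7.16 in SN12C and 7.68 and 7.23 in LM2. There the difference was 0.19 and the lines overlapped. BIRC5, survivin, of the same complex, had the widest gap of all members between the SN12C arrays, at 11.26 and 12.14, and read 12.28 and 12.32 in LM2. Its difference was 1.04 against replicate 1 and 0.16 against replicate 2, so most of the mean difference of 0.60 lay in 1 array. NEK2, a centrosome kinase that is no Aurora partner, overlapped, at 11.59 and 11.36 in SN12C and 11.48 and 11.42 in LM2.

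At the kinetochore and its checkpoint 4 of 7 genes lay higher without overlap, 1 lower and 2 overlapped. Of all genes 25.3% lay higher and 14.1% lower without overlap, and of the brighter ones 37.7% and 15.5%. BUB1, a checkpoint kinase, was the lower one, with 10.54 and 10.98 in SN12C and 10.47 and 10.44 in LM2. Its 2 further probe sets past the filter gave 0.21 and 0.22, so the direction depended on the probe set. BUB1B, its relative BUBR1, read 10.43 and 11.03 in SN12C and 11.11 and 11.02 in LM2 and overlapped. NDC80, the outer kinetochore protein that grips microtubules, read 11.02 and 11.46 in SN12C and 11.46 on both LM2 arrays. LM2 replicate 2 and SN12C replicate 2 had the same value. CENPA, the histone variant of centromeres, read 10.59 and 11.03 in SN12C and 11.24 and 11.12 in LM2. NUF2, which pairs with NDC80, TTK, the checkpoint kinase MPS1, and CENPF were higher by 0.30, 0.28 and 0.32.

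All 6 spindle motors and microtubule proteins separated without overlap, 5 higher and 1 lower in LM2. Over all genes 25.3% separated as higher and 14.1% as lower, and over the brighter ones 37.7% and 15.5%. HMMR, a microtubule-binding protein of the spindle, read 11.54 and 11.57 in SN12C and 11.83 and 11.96 in LM2. Its SN12C arrays were close, and the difference of 0.33 ± 0.09 (SE; limma adjusted p = 0.366) was nearly the same against each of them. That held for the probe set used only. A further HMMR probe set read 10.33 and 10.92 in SN12C, with LM2 higher by 1.01 against replicate 1 and 0.42 against replicate 2. ASPM, a protein of spindle poles, read 11.04 and 11.19 in SN12C and 11.58 and 11.44 in LM2, though its dimmer probe sets gave -0.49 and -0.72. NUSAP1, which bundles spindle microtubules, read 11.87 and 12.21 in SN12C and 12.37 and 12.39 in LM2. KIF4A, a chromosome-borne kinesin, read 11.05 and 11.49 in SN12C and 11.55 and 11.58 in LM2, so that LM2 was 0.07 above replicate 2. KIF11, the kinesin that pushes spindle poles apart, was higher by 0.35. KIF2C, a kinesin that takes microtubules apart at centromeres, was lower on both LM2 arrays, at 11.50 and 11.50, than in SN12C, at 11.97 and 11.80; it was singled out after its values were seen, and its second probe set gave -0.25.

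In cytokinesis 5 of 6 genes were higher without overlap (25.3% of all genes, 37.7% of the brighter ones). KIF23, a motor of the central spindle, read 9.68 and 10.28 in SN12C and 10.58 and 10.36 in LM2, and most of its difference of 0.49 was against replicate 1. ANLN, anillin, a scaffold of the contractile ring, read 11.91 and 12.38 in SN12C and 12.50 and 12.40 in LM2. ECT2, which activates the small GTPase of that ring, read 11.72 and 11.70 in SN12C and 11.91 and 11.80 in LM2. The ECT2 difference was small, 0.15, but the SN12C arrays were only 0.02 apart with this probe set. A further ECT2 probe set past the filter read 8.84 and 9.78 in SN12C. There the LM2 difference was 0.73, with 1.20 against replicate 1 and 0.25 against replicate 2. PRC1, a microtubule bundler, and CEP55, of the final cut between daughter cells, were higher by 0.34 and 0.26. KIF20A, another central-spindle motor, lay between the SN12C arrays.

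The genes of chromosome separation and proteolysis did not share a direction, with 1 higher, 1 lower and 2 overlapping. Without overlap, 25.3% of all genes were higher and 14.1% lower, and 37.7% and 15.5% of the brighter ones. UBE2C read 12.06 and 11.94 on the SN12C arrays and 10.77 and 11.10 on the LM2 arrays. The means were 12.00 ± 0.08 and 10.94 ± 0.23 (SD, n = 2 each), and the difference of -1.06 ± 0.15 (SE; limma adjusted p = 0.252) makes the LM2 signal 0.479 of that in SN12C. It was the only member at least 1 log2 unit lower, as were 1.26% of all genes, and it was read by a single probe set. TOP2A, topoisomerase II alpha, which untangles sister chromosomes, read 12.15 and 12.14 in SN12C and 12.43 and 12.56 in LM2. The difference was 0.34 ± 0.09 (SE; limma adjusted p = 0.351), with the smallest gap between SN12C arrays of all members. A further TOP2A probe set past the filter gave a difference of 0.13 and overlapped. It read 12.17 and 11.83 in SN12C and 12.23 and 12.05 in LM2. CDC20, the activator of the anaphase-promoting complex, had SN12C arrays on either side of LM2, at 12.16 and 12.90, with both LM2 arrays at 12.73. PTTG1, securin, had a difference of -0.15 and overlapped.

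The second comparison, LM1 with SN12C, concerns the first metastatic generation and rests on 1 LM1 array, so no spread of LM1 itself was measured. Members were mostly higher in LM1 too, with a median of 0.33 against 0.09 over all genes and 0.21 over the brighter ones. The member median was 0.44 against SN12C replicate 1 and 0.19 against replicate 2, where the brighter genes had 0.36 and 0.067. In 27 of 34 the LM1 value was above the SN12C mean, against 60.2% of all genes and 67.1% of the brighter ones. LM1 was above all 4 other arrays in 16 members, against 37.6% and 41.3%, and below all 4 in PLK1, TPX2, CENPA and KIF20A, 4 members against 14.8% and 17.9%. In limma 0 of 34 members passed (lowest adjusted p = 0.11, for HMMR), percent called was 0, and 12 of 34 had an unadjusted p under 0.05, against 22.1% of all genes. Without SN12C replicate 1 there were 7 members and 1979 of 15024 genes passing, and without replicate 2 there were 14 members and 4823 genes, both with only the LM2 pair to give a spread. This comparison and the first share the SN12C arrays.

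FOXM1 stood furthest apart, at 11.96 in LM1 against 10.19 and 10.67 in SN12C and 11.00 and 10.86 in LM2. Its LM1 difference of 1.53 ± 0.25 (SE; limma adjusted p = 0.113) was the only one of at least 1 log2 unit, a size that 6.27% of all genes reached. KIF4A was at 12.26 in LM1, AURKA at 13.09, NDC80 at 12.14 and BIRC5 at 12.59, each above the other 4 arrays, with differences of 0.99, 0.94, 0.90 and 0.89. For BIRC5 the direction depended on the probe set, since its further ones gave 0.79, 0.065 and -0.96. HMMR at 12.25 and CDK1 at 12.69 were also above the others, by 0.69 and 0.59 from the SN12C mean, with the probe sets used. A further probe set of HMMR gave -0.47 and a pair of CDK1 -0.46 and -0.55, each with LM1 below the other 4 arrays, and another of CDK1 gave 0.60. TPX2 went the other way, at 11.96 in LM1, below both SN12C arrays, with a difference of -0.77. UBE2C was at 11.45 in LM1, between SN12C and LM2, with a difference of -0.55. CCNB1 was at 13.11 and TOP2A at 12.28, each between SN12C and LM2.

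The third comparison, LM2 with LM1, had 13 of 34 members higher in LM2, against 34.9% of all genes, and a median of -0.13 against -0.07. In limma 0 of 34 members passed (lowest adjusted p = 0.178, for TPX2), percent called was 0, and 10 of 34 had an unadjusted p under 0.05, against 17.0% of all genes. With the arrays of these lines alone, which leaves the LM2 pair as the spread, 6 members passed, 2 of them higher in LM2, among 1273 of 15024 genes. The largest differences were PLK1 at 1.11 and TPX2 at 1.08 higher in LM2, FOXM1 at -1.03, CENPA at 0.78 and KIF4A at -0.70. CENPA read 10.40 on LM1, below the other 4 arrays. Taking the mean over all probe sets of a gene turned the median from -0.13 to 0.12.

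Probe sets of the same gene disagreed on the LM1 array. Of the 66 probe sets, 60 passed the filter, and 18 members had several. In 12 of the 18 the LM1 difference from SN12C changed sign between probe sets, against 56.6% of 7195 such genes, and in 5 of the 18 the LM2 difference did, against 38.6%. The probe sets of a gene stood at least 2 log2 units apart in LM1 in 8 of 18, against 11.6% of all such genes and 21.8% of 2335 as bright, while for LM2 this held for 0 of 18 and 0.222% of genes. BUB1 gave -0.12 with the probe set used and -4.25 with another, which read 9.28 and 10.92 in SN12C, 5.86 in LM1 and 10.30 and 10.33 in LM2. NUSAP1 gave 0.16 and -3.59, its second probe set reading 10.46 and 11.56 in SN12C, 7.42 in LM1 and 11.72 and 11.78 in LM2. TOP2A gave 0.13 and -2.26, and ANLN, ASPM, ECT2, NEK2 and CDC25C had a probe set between -1.73 and -2.65 beside one above 0. AURKB gave 0.39 with the probe set used and -0.49 with the other.

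The rule keeps the brightest probe set over all 5 arrays, so one that is low on LM1 is kept less often. With the mean over all probe sets the median LM1 difference of the members was 0.073 in place of 0.33. AURKA, CENPF and CCNB1 were higher in LM1 on every probe set past the filter: AURKA gave 0.56, 0.94 and 1.13, CENPF 0.34 and 1.39, and CCNB1 0.17 and 0.83. BUB1 and KIF2C were lower on every one, KIF2C at -0.058 and -0.75, and KIF23 gave 0.12 and 0. FOXM1, PLK1, TPX2, UBE2C, KIF4A, NDC80 and CENPA were each read by 1 probe set. The 3' excess of the beta-actin control, given above, was 3.43 on the LM1 array; its part in these differences was not tested.

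**Figure D4:**
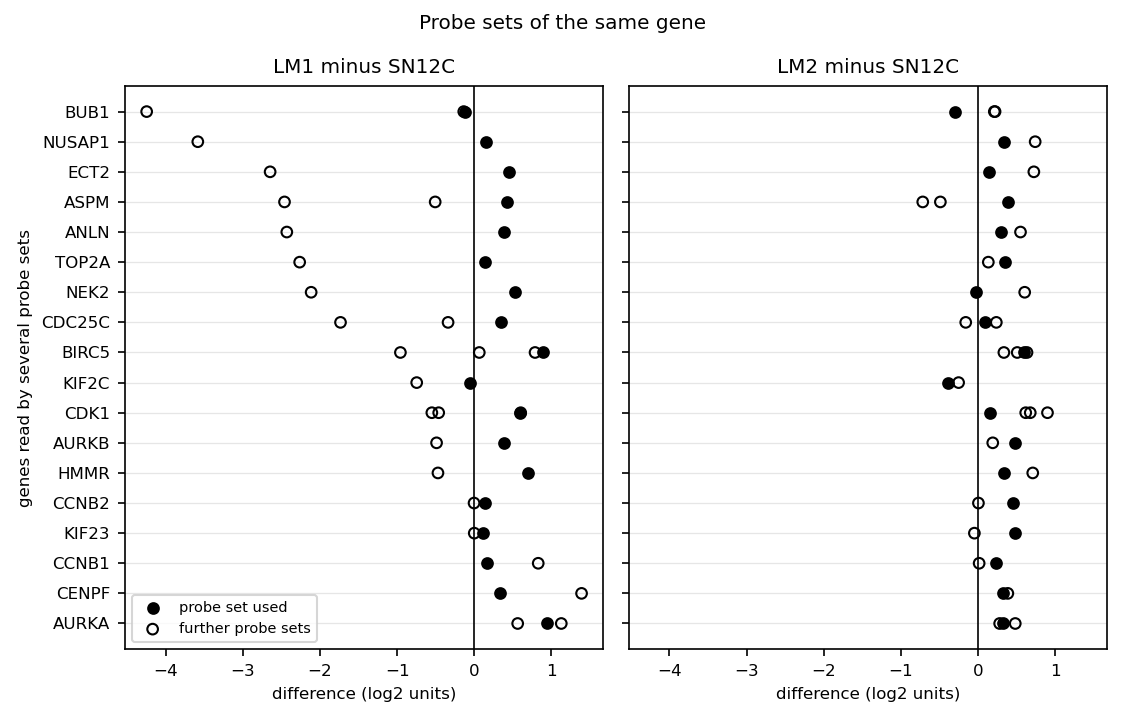
Difference from the SN12C mean, in log2 units, for LM1 (left) and LM2 (right), for the 18 members with several probe sets past the filter; filled points are the probe sets used and open points the further ones. Further probe sets reach -4.25 in LM1, while the LM2 differences of the same probe sets stay between -0.72 and 0.90.

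Most probe sets that were low on LM1 were also lower on SN12C replicate 1 than on replicate 2. Of the 60 member probe sets, 14 were at least 1 log2 unit lower in LM1 than in LM2, and in 11 of these SN12C replicate 1 was below replicate 2, with a median of -0.85. In the other 46 it was below in 30, with a median of -0.26. Over all genes but the members, it was below in 1960 of 2202 probe sets that were as much lower in LM1, with a median of -0.75, and in 14493 of the other 25477, with a median of -0.074. Across the 60 probe sets the 2 differences, which share no array, had a Pearson correlation of 0.43 and a Spearman correlation of 0.38, against 0.34 and 0.15 across the 27679 probe sets of all other genes; the points share arrays and genes and are not independent. For the 14 probe sets LM2 was above the SN12C mean by a median of 0.61 and above SN12C replicate 2 alone by 0.19, and for the 46 by 0.29 and 0.13. SN12C replicate 1 had the second-largest 3' excess of beta-actin, 0.47, and the part of RNA quality in its lower mitosis signals was not tested.

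**Figure D5:**
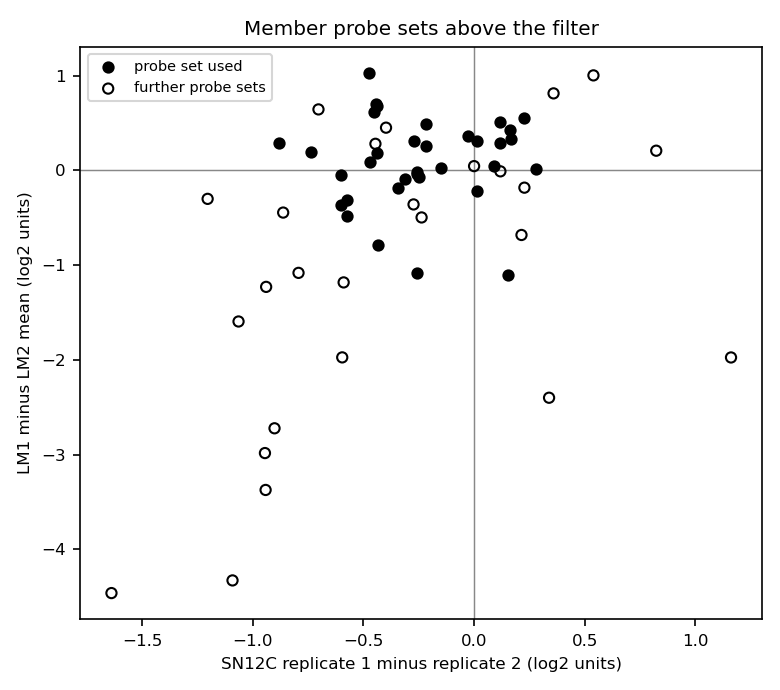
Each point is 1 of 60 member probe sets past the filter, with SN12C replicate 1 minus replicate 2 on the horizontal axis and LM1 minus the LM2 mean on the vertical one, both in log2 units; filled points are the probe sets used. The lowest points, at about -4.46 and -4.33, lie at -1.64 and -1.09 on the horizontal axis.

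Further genes of mitosis that are no members were also mostly higher in LM2, less so against SN12C replicate 2. Of 60 tested, 0 passed in limma in either direction and 5 had an unadjusted p under 0.05, a smaller share than the 11.6% of all genes. Above the SN12C mean were 51 of the 60 (55.5% of all genes, 69.5% of the brighter ones), with a median of 0.27. Both LM2 arrays lay above both SN12C arrays in 25 of 60 (25.3% and 37.7%) and below in 4 (14.1% and 15.5%). Against SN12C replicate 2 alone their median was 0.06. The largest differences were in SKA3, of the outer kinetochore, at 1.00, CENPN, of the centromere, at 0.96, and CENPI at 0.84. SKA3 read 8.04 and 9.29 in SN12C and 9.55 and 9.79 in LM2. In LM1 44 of the 60 were above the SN12C mean (60.2% of all genes), with a median of 0.34, which was 0.53 against SN12C replicate 1 and 0.12 against replicate 2. In limma 0 passed and 14 of 60 had an unadjusted p under 0.05, near the background of 22.1%. CDC25A, a CDK-activating phosphatase, was at 1.59, DSN1, of the kinetochore, at 1.39 and GTSE1 at 1.21. The SN12C arrays read 8.32 and 9.94 for CDC25A, 8.61 and 9.66 for DSN1 and 9.65 and 9.95 for GTSE1.

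Genes of G1/S and replication, 23 tested, had a median of 0.75 in LM2 with 0 passing in limma (1 with an unadjusted p under 0.05), but 1.22 against SN12C replicate 1 and 0.13 against replicate 2. The members' values of 0.44 and 0.16 against the same arrays differ less.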

How the data were processed

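RNA of 3 lines was hybridised to 5 arrays. The values the authors deposited are log2 signals, 1 for each array and probe set. RMA and Partek are named in the submitters' processing notes, with versions not given in the sources used here. RMA normally evens out the arrays' signal distributions, which reduces differences in total signal. In the deposited values the SD over all probe sets still differed, 2.11 on SN12C replicate 1 and 2.22 to 2.25 elsewhere. No value was transformed again.

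Of 54675 probe sets, 62 are controls. The platform table names 41097 with 1 gene and 1801 with several, which were not used; 41043 matched the gene table of GRCh38.p14, used for names. For each of 19775 genes the brightest probe set was kept, and 15024 genes with at least 2 arrays at the 40th percentile of all values, 6.03, were tested. Of the 34 probe sets used, 12 end in _s_at and 3 in _x_at, types that can bind several transcripts.

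All 5 arrays entered 1 model with a mean for each line (limma 3.58.1, lmFit and eBayes, R 4.3.3), with Benjamini-Hochberg adjustment over all genes and 2 residual degrees of freedom. The test was tested on simulated data. Promoter sequences are RefSeq's. Figures used matplotlib 3.10.9. Members and lists were chosen with earlier results of these data known. Values on every array are given for the 5 largest differences of each comparison, the 4 widest and 2 narrowest SN12C gaps, the best known genes and those whose probe sets differ in sign. Alternatives were tried for the filter, normalization, choice of probe set, eBayes options and arrays fitted, as were fits with a replicate block or lacking 1 replicate.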

Additional observations from a re-analysis of the deposited data

How the results depend on the processing

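Under the alternatives, the median member difference of LM2 from SN12C stayed between 0.16 (without SN12C replicate 1) and 0.44 (without SN12C replicate 2). The median LM1 difference moved to 0.073, and that of LM2 from LM1 to 0.12, with the mean over all probe sets. Leaving out 1 replicate gave 0 to 11 members passing for LM2 against SN12C, 0 to 14 for LM1 against SN12C and 0 to 6 for LM2 against LM1, where the arrays of those lines alone also gave 6; fits without an SN12C array take their spread from the LM2 pair. Counts of arrays without overlap under other settings were chosen after seeing the data. With probe sets not ending in _x_at or _s_at, which leave 26 members, 15 lay above (24.3% of all genes), and after quantile normalizing again 5 lay below (25.5%). Leaving out 1 replicate gave 25 to 29 above and 3 to 6 below, but the shares of all genes rose as well, to 32.7% to 50.4% above and 22.3% to 35.1% below. The LM2 difference turned sign in ASPM (-0.27 with the mean over all probe sets, -0.72 without _x_at and _s_at), BUB1 (0.0105 with the mean), CDC25C (-0.16 without those types, -0.0735 after quantile normalizing, -0.0164 without SN12C replicate 1 and up to 0.202 without another replicate), CDC20 (-0.17 without SN12C replicate 1, 0.572 without replicate 2), KIF23 (-0.0461 without those types) and NEK2 (0.29 with the mean, 0.088 and -0.138 without SN12C replicate 1 and 2, 0.0027 without LM2 replicate 2); the cause was not tested. With the replicate block the median was 0.30 and 0 members passed; the numbers are shared by 2 pairs, whose deviations correlated at 0.09, and the pairing changed no call. For the named genes 350 further values kept direction and side of the threshold, and 9 passed without SN12C replicate 2.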

Other observations

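Regulators of the mitotic program had a median LM2 difference of 0.15 log2 units from SN12C, with 16 of 22 above 0, against 55.5% of all genes and 69.5% of those as bright as the mitosis genes. That median was 0.30 against SN12C replicate 1 and 0.027 against replicate 2. Of the 22, 0 passed in limma against SN12C in LM2 (3 with an unadjusted p under 0.05) and 0 in LM1 (9 with such a p). MYBL2, the B-MYB factor that acts on late cell-cycle promoters, read 10.31 and 11.11 in SN12C, 11.77 in LM1 and 11.59 and 11.49 in LM2, so both derived lines lay above both parental arrays. RBL1, the pocket protein p107, had the largest difference in LM2, at 1.22, but read 6.86 and 8.73 on the SN12C arrays. All 5 genes listed as repressors and their partners, TFDP1 among them, had both LM2 arrays above both SN12C arrays (25.3% of all genes, 37.7% of the brighter ones), with a median of 0.34. Among 6 CDK inhibitors tested, 4 were lower in LM2, with a median of -0.12, where 6523 of all 15024 genes were lower. CDKN2A, among the 4, was at -0.016, and LM2 was 0.054 above SN12C replicate 2. Named after their values were seen, CDKN1A, p21, read 8.60 and 8.53 in SN12C and 7.96 and 8.28 in LM2, and CDKN1B, p27, 10.53 and 10.16 against 9.98 and 9.98. CDKN3, a phosphatase of CDKs, went the other way at 0.85, with 10.86 and 12.06 in SN12C and 12.32 and 12.31 in LM2. In LM1 the activators had a median of 0.76, with 7 of 11 above the SN12C mean (60.2% of all genes, 67.1% of the brighter ones). The median was 0.92 against SN12C replicate 1 and 0.49 against replicate 2. E2F3 was at 0.93 and NFYC at -1.01.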
